A study of Drosophila melanogaster with 18 samples.

Results

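The genes described here were higher in haploid than in diploid Drosophila embryos at each of 3 matched stages, while their diploid level moved by less than 2-fold between nuclear cycle 13 and early cycle 14. They are 41 of the 11982 genes that had a probe set with a single gene symbol, each gene being read from its brightest probe set. A gene was kept when its haploid mean lay at least 1 above its diploid mean on the log2 scale, which is 2-fold, in each of the 3 pairings named in the next paragraph. The diploid difference between cycle 13 and early cycle 14 had to stay under 1 in either direction, and the highest haploid mean had to reach 5, an intensity of 32. The genes gammaTub37C, Pka-C3 and sens were set aside from the outset, and of these gammaTub37C met the conditions, with differences of 3.73, 3.96 and 3.63. The genes were thus chosen by the haploid minus diploid differences, the first diploid step and the haploid level, and these are given below as a description with no test. The nearest genes inside the limit were GstE10, Ance-2, GstE9 and ogre, with a least difference of 1.02, 1.03, 1.03 and 1.04. The nearest ones outside were CG7420, bou, Ada and Dyrk3, at 0.99, 0.97, 0.96 and 0.93.

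The haploid embryos had parents of the genotype maternal haploid;histone H2-GFP and were taken in cycle 14, early cycle 15 and late cycle 15. The diploid embryos had parents of the genotype w;histone H2-GFP and were taken in cycle 13, early cycle 14 and late cycle 14. Haploid cycle 14 was collected 15 min after the division of cycle 13, and haploid early and late cycle 15 were collected 15 and 40 min after the division of cycle 14. The diploid collections were made 15 min after the division of cycle 12, and 15 and 40 min after the division of cycle 13. Haploid cycle 14 is paired with diploid cycle 13, haploid early cycle 15 with diploid early cycle 14, and haploid late cycle 15 with diploid late cycle 14, because each pair shares its ratio of nuclei to cytoplasm. Each of the 6 groups had 3 biological replicates of about 50 hand-picked whole embryos, 1 array each. All embryos carried the histone fusion, by which the divisions were watched. Ploidy and parental stock differ together between the groups, and within each matched pair the nuclear cycle differs with them, so these cannot be told apart. In whole embryos, fewer cells of a type and less RNA per cell cannot be told apart either.

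The early fly embryo divides its nuclei in a common cytoplasm and runs on RNA loaded by the mother, until zygotic transcription rises and maternal RNA is degraded. The ratio of nuclei to cytoplasm is a known timer of that change, and a haploid embryo reaches a given ratio a division later than a diploid one. Eggs of maternal haploid mothers lose the paternal chromosomes after fertilisation and develop on the maternal set.

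The arrays were not equally bright. Their deposited upper quartiles averaged 97.6, 109 and 122 in haploid cycle 14, early cycle 15 and late cycle 15, against 236.3, 195.2 and 132.8 in diploid cycle 13, early cycle 14 and late cycle 14. The arrays were therefore quantile normalised, and every intensity given below is a quantile normalised one. Replicate arrays then correlated at 0.926 to 0.944 over the probe sets that are not controls. Background was set at an intensity of 31.9, from the 95th percentile over 20 negative controls. Where all 3 diploid arrays of a stage lie under it, a log2 difference has no fixed size. For genes described singly the haploid level over background is then given as an "at least" fold where it exceeds 1, and no fold is given where it does not. Intensities of different genes come from different probes and are not set against each other.

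At the matched stages the median difference of the 41 genes was 1.56 in haploid cycle 14 against diploid cycle 13, 1.67 in early cycle 15 against early cycle 14 and 1.54 in late cycle 15 against late cycle 14 (log2 intensity, n = 3 arrays a group). The medians over all 11982 genes were 0.08, 0.04 and 0.02. Being at least 2-fold higher in haploids was the condition itself, which 10.7%, 7.59% and 8.04% of all genes passed in the single pairings and 0.860% passed in all 3. The differences spread from 1.02 to 4.51, from 1.04 to 5.35 and from 1.03 to 5.40. These sizes, and the ranks drawn from them, include pairs in which the diploid level was not measured, since all 3 diploid arrays lay under background for 23 genes in cycle 13, 17 in early cycle 14 and 15 in late cycle 14. For 15 genes the 3 differences lay within 0.5 of each other, and the median range was 0.62. The largest of the 3 differences fell in haploid cycle 14 for 11 genes, in early cycle 15 for 14 and in late cycle 15 for 16.

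**Figure D1:**
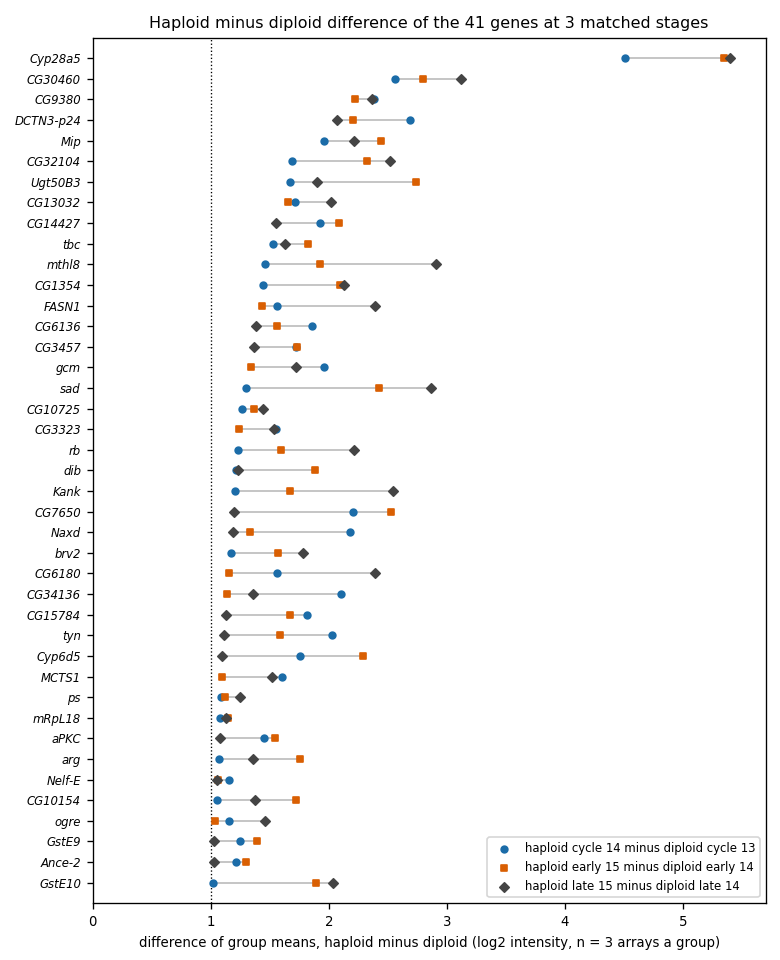
Haploid minus diploid difference of mean log2 intensity (x axis) for each of the 41 genes (rows, ordered by their least difference), with a marker for each matched stage and a grey line over their range (n = 3 arrays a group). The dotted line marks the limit of 1 that chose the genes, and Cyp28a5 stands apart at 4.51 to 5.40 while most other genes lie between 1 and 3; differences against diploid groups under background, those of Cyp28a5 among them, have no fixed size.

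The single arrays of the 2 ploidies were apart for most of these genes. The 3 haploid arrays lay above the 3 diploid arrays for 35 genes in haploid cycle 14, 37 in early cycle 15 and 39 in late cycle 15, where 24.9%, 19.8% and 19.2% of all genes did so. That held in all 3 stages for 32 genes, against 6.20% of all genes. For 21 genes each of the 9 haploid arrays lay above each of the 9 diploid arrays, whatever the stage, against 1.01% of all genes. The same contrasts chose the genes, so nothing is read from these counts. Levels were low for a large share of the list. On the diploid side 13 genes were under background on all 9 arrays and 14 were above it on all 9. On the haploid side 26 genes were above background on all 9 arrays. Cyp28a5, CG30460 and CG10725 were above background on every haploid array and on no diploid array.

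Enzymes that oxidise or conjugate small molecules made up 7 of the 41 genes. Cyp28a5 and Cyp6d5 are cytochrome P450s of families linked to the turnover of foreign compounds, dib and sad are mitochondrial P450s of ecdysteroid synthesis, Ugt50B3 is a UDP-glycosyltransferase, and GstE9 and GstE10 are glutathione S-transferases. Their differences ran from 1.02 to 5.40. The haploid arrays lay above the diploid arrays in every stage for 5 of the 7, against 6.20% of all genes. The same contrasts chose the genes, so nothing about these enzymes is read from this count.

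Cyp28a5 differed most. Its intensities were 48.2, 76.7 and 36.9 in haploid cycle 14, 64.6, 140.5 and 155 in haploid early cycle 15 and 115, 118 and 215 in haploid late cycle 15. They were 3.1, 2.72 and 1.38 in diploid cycle 13, 4.13, 3.25 and 1.55 in diploid early cycle 14 and 8.82, 2.21 and 2.02 in diploid late cycle 14. No diploid array came near background and no haploid array fell below it, so the haploid levels were at least 1.61-fold, 3.5-fold and 4.48-fold the background. The log2 differences behind its rank, 4.51, 5.35 and 5.40, rest on diploid values too dim to be measured. No step of this gene between stages was called.

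Cyp6d5, a second P450, had intensities of 19.7, 38.4 and 8.05 in haploid cycle 14, 46.2, 34.8 and 43.6 in haploid early cycle 15 and 99.2, 143 and 128 in haploid late cycle 15. In diploids it had 4.82, 4.24 and 7.74 in diploid cycle 13, 9.36, 9.42 and 6.84 in diploid early cycle 14 and 35.5, 76.7 and 68.6 in diploid late cycle 14. Its haploid cycle 14 arrays straddled background, and it reached the highest levels late in the last interphase in both ploidies. The haploid arrays lay above the diploid arrays at each matched stage. The diploid arrays of the first 2 stages were under background, so that no fold is given for the first pair, the haploid level was at least 1.29-fold the background in the early pair, and the log2 difference was 1.10 in the late pair.

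The ecdysteroid enzyme gene dib was at 67.3, 68.2 and 49.04 in haploid cycle 14, 153, 176 and 156 in haploid early cycle 15 and 424, 441 and 455 in haploid late cycle 15. The diploid arrays gave 26.3, 22.1 and 30.99 in diploid cycle 13, 52.3, 37.4 and 43.04 in diploid early cycle 14 and 181, 222 and 163 in diploid late cycle 14. It was brightest late in both series, and the haploid arrays lay above the diploid ones at each matched stage. It was at least 1.90-fold the background in haploid cycle 14, where the diploid arrays were under it, and the later differences were 1.88 and 1.23. The other such enzyme gene, sad, was dim, between 3.67 and 47.6 on the 9 haploid arrays and between 2.59 and 6.95 on the 9 diploid arrays, with 4 haploid arrays and no diploid array above background. It was at least 1.32-fold the background in haploid late cycle 15.

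A list of ecdysteroid synthesis genes was put together after these values had been seen, and 7 of its 8 genes were measured. Besides dib and sad, sro met the 2-fold limit at all 3 stages, with a difference of 1.71 in the late pair, the one in which its diploid arrays were above background. Its calculated diploid step of 1.09 kept it out of the present set, but the 6 arrays behind that step were under background, so it is no measured change. The P450 gene spo, which acts before dib and sad in the same pathway, differed by 1.62, 1.08 and 0.56, and its mean was above background in all 6 groups. In nvd no haploid group mean was above background, and in shd no group mean of either ploidy was. The gene spok was under background on all 18 arrays.

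Of the conjugating enzymes, GstE9 had 79.4, 88.5 and 71.98 in haploid cycle 14, 107, 116 and 97.5 in haploid early cycle 15 and 39.3, 57.6 and 87.04 in haploid late cycle 15. Its diploid intensities were 24.5, 34.1 and 45.2 in diploid cycle 13, 48.5, 44.4 and 31.2 in diploid early cycle 14 and 33.5, 23.3 and 29.9 in diploid late cycle 14. The groups did not overlap at any matched stage, yet the lowest haploid late array lay below 3 diploid arrays of other stages, and the differences of 1.25, 1.39 and 1.03 were among the smallest of the list. GstE10 lay between 49.5 and 138 on the 9 haploid arrays and between 7.54 and 80.3 on the 9 diploid arrays. Its diploid replicates disagreed, with 8.16, 44.9 and 80.3 in early cycle 14 and 10.5, 54.5 and 7.54 in late cycle 14, and the late groups overlapped. Ugt50B3 lay between 29.9 and 89.7 on the 9 haploid arrays and between 6.1 and 28.3 on the 9 diploid arrays, none of the diploid arrays being above background and 8 of the haploid ones being so.

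As calculated, the wider families lay near 0 at the median. Among 34 measured genes of a detoxification list, Cyp28a5, Cyp6d5 and GstE9 were at least 2-fold higher in haploids at all 3 stages and 1, Ugt302C1, was lower at all 3. The list's medians were -0.04, -0.04 and 0.03. Of the 34 genes, 14 were under background on all arrays, so the medians rest in part on values too dim to be measured. In the GstE family, a list drawn up after the values were seen, 2 of 13 measured genes were higher at all 3 stages and the medians were 0.21, 0.27 and -0.02. There 3 genes were under background on all arrays.

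**Figure D2:**
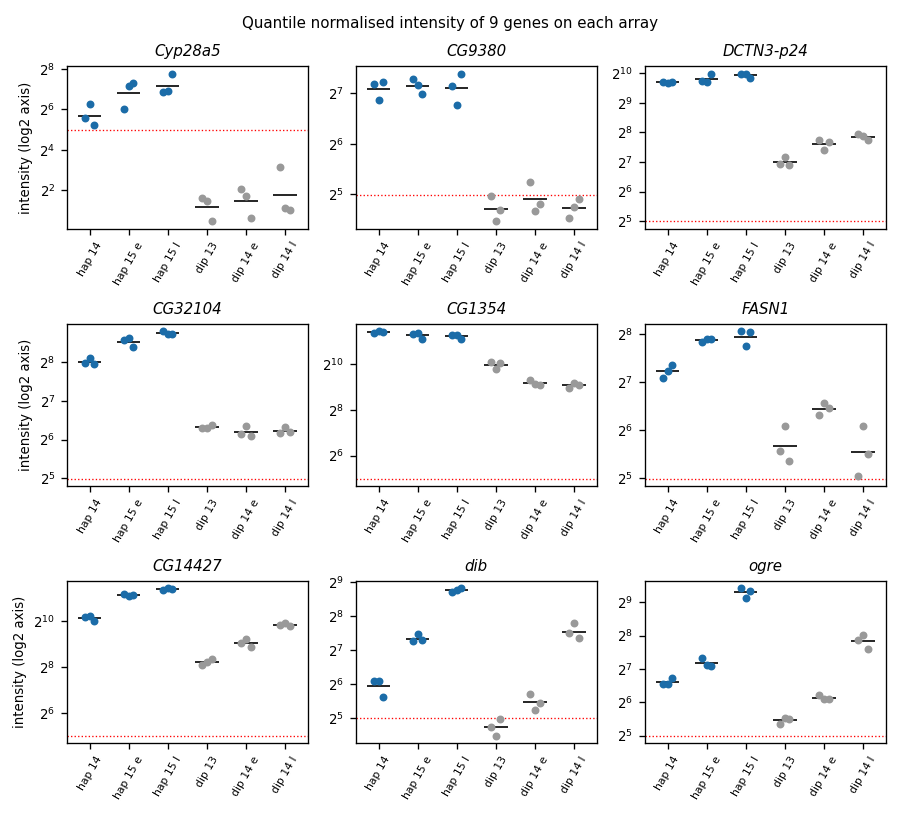
Quantile normalised intensity on a log2 axis for 9 of the genes, with 1 point an array (blue for haploid, grey for diploid), a black bar at the mean of the log2 values of each group of 3 arrays and a red dotted line at background (31.9). Cyp28a5 lies under background in diploids and above it in haploids, DCTN3-p24 and CG1354 stay apart at every stage, and dib and ogre are brightest in the late groups of both series.

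Of the genes for trafficking, cytoskeleton and matrix, DCTN3-p24 is a subunit of dynactin, the partner complex of the dynein motor. It was bright in haploids, with 832, 820.1 and 836 in haploid cycle 14, 855, 837 and 1009.6 in haploid early cycle 15 and 1001, 1013 and 915 in haploid late cycle 15. Diploids had 122, 145 and 120.3 in diploid cycle 13, 215, 168 and 203 in diploid early cycle 14 and 244, 236 and 216 in diploid late cycle 14. The lowest haploid array, at 820.1, was far above the highest diploid array, at 244, and the replicates of each group lay close together. The difference was 2.69, 2.21 and 2.07, above 2 at all stages. The gene rb, which encodes a subunit of the AP-3 vesicle coat best known from eye pigment granules, had 626, 557 and 649 in haploid cycle 14, 932, 733 and 792 in haploid early cycle 15 and 1027, 960.0 and 948 in haploid late cycle 15. The diploid values were 225, 319.8 and 242 in diploid cycle 13, 320.0, 272 and 226 in diploid early cycle 14 and 232, 188 and 216 in diploid late cycle 14. Its haploid levels lay above all diploid ones, with differences of 1.23, 1.59 and 2.21 that were widest late in the interphase.

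Kank, which encodes a protein with KN motif and ankyrin repeats, was dim early and bright late in haploids, with 29.1, 29.5 and 43.98 in haploid cycle 14, 50.1, 64.6 and 76.3 in haploid early cycle 15 and 211, 198 and 180.3 in haploid late cycle 15. In diploids it stayed near background, at 25.6, 10.9 and 11.1 in diploid cycle 13, 11.3, 21.1 and 31.99 in diploid early cycle 14 and 35.04, 35.8 and 30.2 in diploid late cycle 14. It was at least 1.05-fold the background in haploid cycle 14, and the later differences were 1.67 and 2.54, where 1 and 2 of the 3 diploid arrays were above background. None of the 3 other Kank probe sets was above background on more than 3 arrays. The zona pellucida domain gene tyn lay between 18.5 and 73.7 on the 9 haploid arrays and between 5.01 and 33.5 on the 9 diploid arrays, and its groups overlapped in the early and late pairs.

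The metabolic genes were FASN1, Naxd, arg and Ance-2. FASN1, a fatty acid synthase that builds long-chain fatty acids, had 136, 151 and 165 in haploid cycle 14, 229.8, 239 and 239 in haploid early cycle 15 and 268, 215 and 264 in haploid late cycle 15. The diploid arrays gave 47.2, 67.8 and 41.4 in diploid cycle 13, 79.9, 94.4 and 88.5 in diploid early cycle 14 and 33.3, 68.5 and 45.7 in diploid late cycle 14. All haploid arrays lay above all diploid arrays, and the difference was largest late, at 1.56, 1.43 and 2.40. Naxd, which repairs damaged forms of the reduced nicotinamide cofactors, lay between 624 and 852 on the 9 haploid arrays and between 118 and 403 on the 9 diploid arrays, and its difference was largest early, at 2.18, 1.33 and 1.19. The arginase gene arg and Ance-2, related to angiotensin-converting enzyme, were dim, and none of their diploid arrays was above background. They lay between 22.7 and 53.1 on the 9 haploid arrays and between 10.5 and 24.6 on the 9 diploid arrays for arg and between 26.8 and 83.99 on the 9 haploid arrays and between 13.9 and 27.4 on the 9 diploid arrays for Ance-2.

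Signalling, channel and polarity genes numbered 5. Mip encodes the precursor of the myoinhibitory peptides, neuropeptides of the later animal. It had 32.4, 37.1 and 38.9 in haploid cycle 14, 69.2, 90.3 and 125 in haploid early cycle 15 and 202, 158 and 146 in haploid late cycle 15. Diploid values were 3.89, 6.44 and 31.6 in diploid cycle 13, 28.7, 33.3 and 5.07 in diploid early cycle 14 and 39.1, 43.5 and 27.5 in diploid late cycle 14. The groups did not overlap at any matched stage, but haploid cycle 14 lay just above background and below 2 of the diploid late arrays. The haploid level was at least 1.13-fold the background in cycle 14, and the later differences were 2.45 and 2.21, where 1 and 2 of the 3 diploid arrays were above background.

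The innexin gene ogre, a gap junction channel subunit, had 94.1, 93.6 and 107 in haploid cycle 14, 161, 139 and 135 in haploid early cycle 15 and 684, 555 and 646 in haploid late cycle 15. In diploids it had 40.9, 46.5 and 45.1 in diploid cycle 13, 75.01, 67.9 and 68.3 in diploid early cycle 14 and 235, 259 and 194 in diploid late cycle 14. It was brightest late in both series, with haploids above diploids at the matched stages by 1.15, 1.04 and 1.46. The polarity kinase gene aPKC, which acts at the apical side of epithelia, had 35.7, 25.1 and 24.97 in haploid cycle 14, 45.1, 60.1 and 36.4 in haploid early cycle 15 and 149.9, 131 and 147 in haploid late cycle 15. Its diploid values were 7.75, 9.88 and 14.2 in diploid cycle 13, 21.6, 13.1 and 14.03 in diploid early cycle 14 and 78.3, 62.1 and 63.1 in diploid late cycle 14. It too was highest in the late groups of both ploidies. The diploid arrays of the first 2 stages and 2 of the 3 haploid cycle 14 arrays were under background, so that no fold is given for the first pair. The haploid level was at least 1.45-fold the background in the early pair, and the difference was 1.08 in the late pair.

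The receptor gene mthl8, of the methuselah-like family, lay between 21.2 and 118 on the 9 haploid arrays and between 4.13 and 28.2 on the 9 diploid arrays. The TRP-related channel gene brv2 lay between 10.04 and 45.3 on the 9 haploid arrays and between 2.62 and 23.4 on the 9 diploid arrays. No diploid array of either gene was above background, while 8 haploid arrays of mthl8 and 3 of brv2 were. In haploid late cycle 15 they were at least 3.60-fold and 1.36-fold the background.

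Among the transcription, RNA and translation genes, gcm encodes the regulator that starts glial and blood cell development. It was very dim, with 15.7, 8.997 and 10.99 in haploid cycle 14, 10.3, 17.1 and 3.34 in haploid early cycle 15 and 38.4, 31.9 and 44.2 in haploid late cycle 15. Diploid arrays gave 2.26, 4.33 and 2.72 in diploid cycle 13, 1.34, 3.67 and 7.39 in diploid early cycle 14 and 19.1, 9.92 and 7.97 in diploid late cycle 14. It passed background on 2 arrays, both haploid late ones, so no difference is given, and it was at least 1.18-fold the background late. Nelf-E, a subunit of the complex that holds RNA polymerase paused near promoters, was bright, with 883, 1043 and 1024 in haploid cycle 14, 715, 1043 and 961 in haploid early cycle 15 and 623, 664 and 544 in haploid late cycle 15. The diploid arrays gave 499.5, 444 and 388 in diploid cycle 13, 495, 426 and 372 in diploid early cycle 14 and 302, 321 and 258 in diploid late cycle 14. Its haploid arrays all lay above its diploid arrays, by a nearly even 1.15, 1.06 and 1.05.

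MCTS1, a factor of translation reinitiation, had 150.3, 148 and 137 in haploid cycle 14, 142, 164 and 123 in haploid early cycle 15 and 400.0, 361 and 394 in haploid late cycle 15. Diploids had 44.7, 52.1 and 46.5 in diploid cycle 13, 78.6, 60.6 and 62.4 in diploid early cycle 14 and 152, 153 and 103 in diploid late cycle 14. Levels were highest in the late group of both ploidies, and the differences were 1.60, 1.09 and 1.52. The mitochondrial ribosomal protein gene mRpL18 lay between 393 and 541 on the 9 haploid arrays and between 177 and 276 on the 9 diploid arrays, with steady differences of 1.08, 1.14 and 1.13. The splicing factor gene ps lay between 35.96 and 81.3 on the 9 haploid arrays and between 17.5 and 39.5 on the 9 diploid arrays, and 1 of its diploid arrays was above background.

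The other 16 genes are given no role here. All haploid arrays lay above all diploid arrays for 13 of them, against 1.01% of all genes. That count too comes from the contrasts that chose the genes, and nothing is read from it. The differences of the 16 genes ran from 1.05 to 3.12. CG30460 had 113, 69.7 and 88.4 in haploid cycle 14, 98.7, 125 and 121 in haploid early cycle 15 and 113, 95.3 and 85.6 in haploid late cycle 15. In diploids it had 13.7, 21.3 and 11.6 in diploid cycle 13, 18.7, 23.6 and 10.02 in diploid early cycle 14 and 15.3, 18.1 and 5.07 in diploid late cycle 14, all under background. No step of it was called, and its haploid levels were at least 2.77-fold, 3.58-fold and 3.04-fold the background. CG9380 had 145, 117 and 149.6 in haploid cycle 14, 156, 143 and 126 in haploid early cycle 15 and 142, 109 and 167 in haploid late cycle 15. Its diploid values were 31.5, 22.1 and 25.8 in diploid cycle 13, 38.2, 25.6 and 28.1 in diploid early cycle 14 and 23.2, 27.1 and 29.9 in diploid late cycle 14. No step of it was called either. The haploid level was at least 4.27-fold and 4.29-fold the background in the first and last pairs, and the difference was 2.22 in the early pair, where 1 diploid array was above background. CG10725 had 42.2, 42.1 and 50.4 in haploid cycle 14, 87.3, 61.4 and 60.6 in haploid early cycle 15 and 59.1, 60.3 and 42.1 in haploid late cycle 15. Diploids gave 12.3, 18.6 and 28.5 in diploid cycle 13, 27.7, 21.5 and 31.9 in diploid early cycle 14 and 17.9, 17.4 and 23.9 in diploid late cycle 14, and the haploid levels were at least 1.40-fold, 2.15-fold and 1.66-fold the background.

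CG32104 had 251, 276 and 246 in haploid cycle 14, 379, 389 and 337 in haploid early cycle 15 and 445, 425 and 419 in haploid late cycle 15. It had 78.5, 78.6 and 83.5 in diploid cycle 13, 70.5, 82.1 and 68.3 in diploid early cycle 14 and 71.98, 80.4 and 72.9 in diploid late cycle 14. Its diploid level hardly moved, and the difference grew with stage, at 1.68, 2.32 and 2.52. CG1354 had 2656, 2822 and 2743 in haploid cycle 14, 2595, 2626 and 2239.9 in haploid early cycle 15 and 2491, 2461 and 2227 in haploid late cycle 15. Its diploid values were 1110.0, 879 and 1053 in diploid cycle 13, 638, 564 and 540.1 in diploid early cycle 14 and 507, 582 and 554 in diploid late cycle 14. No tested step of it was called. The diploid means were lower at the later stages, with differences of 1.44, 2.10 and 2.13.

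CG14427 had 1170.2, 1194 and 1027 in haploid cycle 14, 2285, 2199.7 and 2267 in haploid early cycle 15 and 2628, 2765 and 2692 in haploid late cycle 15. In diploids it had 271, 299 and 323 in diploid cycle 13, 524, 599.6 and 472 in diploid early cycle 14 and 898, 968 and 889.7 in diploid late cycle 14. It was brighter at each later stage in both series, with tight replicates, and differed by 1.93, 2.09 and 1.55. CG3457 had 402, 412 and 366 in haploid cycle 14, 702, 607 and 659 in haploid early cycle 15 and 578, 578 and 611 in haploid late cycle 15. Diploid arrays gave 136, 105 and 119 in diploid cycle 13, 147, 238 and 220.0 in diploid early cycle 14 and 198, 289 and 209 in diploid late cycle 14. All its haploid arrays were above its diploid ones, by 1.72, 1.73 and 1.37. CG13032 had 186, 111 and 155 in haploid cycle 14, 198, 265 and 174 in haploid early cycle 15 and 151, 139 and 193 in haploid late cycle 15. It had 39.9, 42.9 and 52.8 in diploid cycle 13, 72.9, 50.3 and 79.6 in diploid early cycle 14 and 61.3, 44.6 and 22.4 in diploid late cycle 14, and its differences were 1.71, 1.66 and 2.02.

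CG10154 had 81.1, 107 and 76.6 in haploid cycle 14, 155, 151 and 145 in haploid early cycle 15 and 138, 154 and 143 in haploid late cycle 15. Its diploid values were 42.1, 47.3 and 37.6 in diploid cycle 13, 67.7, 35.3 and 39.5 in diploid early cycle 14 and 51.9, 54.6 and 62.03 in diploid late cycle 14. The difference was smallest in the first pair, at 1.05, 1.72 and 1.37. CG6180 had 1085, 1545 and 1135 in haploid cycle 14, 1123, 775 and 1162 in haploid early cycle 15 and 1023, 769 and 637 in haploid late cycle 15. Diploids had 239, 604 and 515 in diploid cycle 13, 436, 529 and 399.6 in diploid early cycle 14 and 73.5, 338 and 139.6 in diploid late cycle 14, the replicates of each group being scattered. Its differences were 1.56, 1.15 and 2.39. CG7650 was highest in the first haploid group, with 104, 147 and 130.0 in haploid cycle 14, 79.04, 76.9 and 83.5 in haploid early cycle 15 and 39.8, 29.3 and 27.99 in haploid late cycle 15. It had 27.8, 23.96 and 30.5 in diploid cycle 13, 22.1, 18.5 and 6.44 in diploid early cycle 14 and 14.6, 9.05 and 20.4 in diploid late cycle 14, all under background. The haploid level was at least 3.94-fold and 2.5-fold the background in the earlier pairs, and 1 haploid late array was above background.

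CG6136 had 19.02, 8.46 and 16.8 in haploid cycle 14, 15.3, 17.3 and 15.5 in haploid early cycle 15 and 106, 74.1 and 101 in haploid late cycle 15. It had 6.1, 9.78 and 0.961 in diploid cycle 13, 15.99, 6.18 and 1.63 in diploid early cycle 14 and 39.3, 34.7 and 32.6 in diploid late cycle 14. Both ploidies were under background until the late group, and the earlier groups overlapped, so that its membership rests on values too dim to rank. The others were CG3323, CG15784, CG34136 and tbc. CG3323 lay between 73.4 and 132 on the 9 haploid arrays and between 23.1 and 55.1 on the 9 diploid arrays, and CG15784 lay between 56.9 and 121 on the 9 haploid arrays and between 15.02 and 51.95 on the 9 diploid arrays. CG34136 lay between 29.8 and 68.4 on the 9 haploid arrays and between 4 and 23.4 on the 9 diploid arrays with no diploid array above background. For tbc the values lay between 8.73 and 72.7 on the 9 haploid arrays and between 5.29 and 30.99 on the 9 diploid arrays, and its groups overlapped in the earlier pairs.

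The pairing by ratio is not the single way to align the series. Haploid cycle 14 and diploid early cycle 14 are in the same cycle and were collected at the same time after the division. The haploid minus diploid difference there was 0.46 to 4.23 with a median of 1.17, and it was at least 1 for 27 genes, against 6.61% of all genes. Its direction is fixed by the conditions that chose the genes. Haploid early cycle 15 can also be set against diploid late cycle 14, a pairing of similar age. The conditions do not fix this pairing. Through other differences they did choose the haploid early group as high and the diploid late group as low. They also asked for a haploid log2 mean of 5, while all genes include 4488 under background on all arrays. Nothing is therefore read from the gap to the shares of all genes given next. There the differences ran from -1.14 to 5.04 with a median of 1.61. They were at least 1 for 32 genes, against 7.87% of all genes, between 0 and 1 for 3, and below 0 for 6, against 48.2% of all genes. The 6 were dib at -0.21, gcm at -0.45, Cyp6d5 at -0.47, aPKC at -0.55, ogre at -0.66 and CG6136 at -1.14. For aPKC, ogre and CG6136 the 3 diploid late arrays lay above the 3 haploid early ones. The arrays overlapped for dib and Cyp6d5, and for gcm all 6 were under background, so no order is read for these 3. CG6136 was under background in haploid early cycle 15, so its difference has no fixed size. For 34 of the 41, the lowest haploid group mean lay above the highest diploid group mean. The same means chose the genes, and no share of all genes was counted beside it, so nothing is read from this count.

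**Figure D3:**
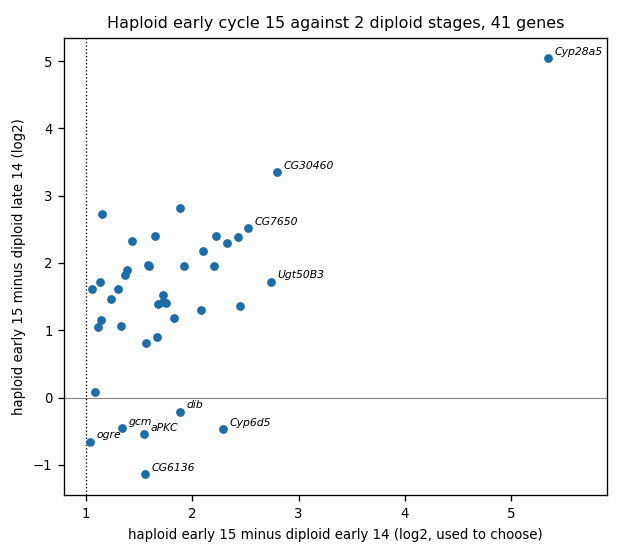
Haploid early cycle 15 minus diploid early cycle 14 (x axis, log2, the pairing that chose the genes, limit 1 dotted) against haploid early cycle 15 minus diploid late cycle 14 (y axis, log2) for the 41 genes, 1 point a gene. On the y axis 35 points lie above 0, and dib, gcm, Cyp6d5, aPKC, ogre and CG6136 lie below it.

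The choice of the genes left 3 steps between stages unused, and these were tested with limma over 14560 probe sets, with Benjamini-Hochberg adjustment and a call at an adjusted p under 0.05. All 41 genes passed the filter on dim probe sets. Steadiness was asked of the diploid step into cycle 14 alone, and 22 of the 41 were called in none of the 3 later steps. No share of all tested genes was counted for the 3 steps together, so nothing about steadiness is read from this count. The arrays of these steps entered the choice through other differences, and the haploid ones through the level limit too.

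From haploid cycle 14 to early cycle 15, 8 of the 41 genes rose, which is 19.5% against 11.7% of all tested genes, and 0 fell, against 12.4%. At an unadjusted limma p under 0.05, 14 members were higher and 0 lower, with no share of all tested genes counted at that limit. The median step was 0.41, beside 0.02 over all tested genes. The count depended on the processing. With median centring 3 genes were called higher and 1 lower, mRpL18 (log2 -0.43 ± 0.15, adjusted p = 0.0481), and with a floor at an intensity of 16 there were 13 higher and 1 lower, CG7650 (log2 -0.66 ± 0.18, adjusted p = 0.0198). With centring on spiked poly-A controls 23 were higher and 0 lower. No share of all tested genes was counted under these alternatives, so nothing about the members is read from the changed counts. The ecdysteroid enzyme gene dib rose most (log2 1.41 ± 0.18, adjusted p = 3.1e-06). CG14427 (log2 1.00 ± 0.09, adjusted p = 5.2e-09) and CG3457 (log2 0.74 ± 0.15, adjusted p = 7.9e-04) rose as well, and these 3 calls were kept under each of the 27 alternatives tried. The calls of CG10154 (log2 0.79 ± 0.22, adjusted p = 0.00954), FASN1 (log2 0.65 ± 0.21, adjusted p = 0.0285), ogre (log2 0.56 ± 0.14, adjusted p = 0.00528), CG32104 (log2 0.51 ± 0.12, adjusted p = 0.00261) and rb (log2 0.42 ± 0.13, adjusted p = 0.0231) were lost with median centring, where the steps were 0.55, 0.44, 0.33, 0.24 and 0.23. CG10154 was also lost without haploid cycle 14 replicate 3, at 0.69. FASN1 was lost without any of 5 of the 6 haploid arrays involved, haploid cycle 14 replicate 3 being the exception, at 0.57 to 0.67. FASN1 and rb were lost too with ribosomal protein centring (adjusted p = 0.0748 and 0.0669), with the floor at 16 (0.0564 and 0.0579) and without the intensity trend in the variance prior (0.0676 and 0.0883). The call of rb was also lost without haploid cycle 14 replicate 2, at 0.35, or early cycle 15 replicate 1, at 0.32.

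From haploid early to late cycle 15, 9 genes rose (22.0%, against 16.6% of all tested genes) and 3 fell (7.32%, against 17.9%). Of the 9, CG6136 and gcm reached the haploid level limit of 5 in late cycle 15 alone, with log2 means of 6.53 and 5.24. A high late value was thus a condition of their choice. Nothing is read from their calls in this step or from the gap between the shares of rises. The rises of ogre (log2 2.12 ± 0.14, adjusted p = 2.3e-11), MCTS1 (log2 1.44 ± 0.17, adjusted p = 1.9e-07), dib (log2 1.45 ± 0.18, adjusted p = 7.9e-07), aPKC (log2 1.62 ± 0.31, adjusted p = 2.1e-04) and Kank (log2 1.64 ± 0.36, adjusted p = 8.7e-04) were kept under all alternatives. CG6136 rose at least 2.89-fold over background (adjusted p = 0.0095) and kept its call too. The rise of Cyp6d5 (log2 1.57 ± 0.46, adjusted p = 0.0113) was lost with poly-A centring, at 0.98. The call of gcm, at least 1.18-fold over background (adjusted p = 0.0245), was lost with poly-A centring, and without haploid early cycle 15 replicate 3, late cycle 15 replicate 1 or late cycle 15 replicate 3, at 1.52, 2.16 and 2.06. The small rise of CG14427 (log2 0.26 ± 0.09, adjusted p = 0.0225) lost its call under 8 alternatives, among them poly-A centring, where it reversed to -0.30. They also included leaving out early cycle 15 replicate 2, late cycle 15 replicate 2 or late cycle 15 replicate 3, at 0.24, 0.24 and 0.26.

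Of the genes that fell in this step, Nelf-E (log2 -0.56 ± 0.13, adjusted p = 0.00181) kept its call throughout. The fall of CG7650 (log2 -1.32 ± 0.39, adjusted p = 0.0105) was lost on the deposited scale and with median or ribosomal protein centring, at -0.84, -0.82 and -0.80. GstE9 (log2 -0.87 ± 0.29, adjusted p = 0.0239) was lost under the same 3 settings, at -0.43, -0.41 and -0.40. It was lost as well without early cycle 15 replicate 1 or 2, at -0.88 and -0.82, or without late cycle 15 replicate 1 or 2, at -0.60 and -0.87.

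From diploid early to late cycle 14, 7 genes rose (17.1%, against 17.4% of all tested genes) and 5 fell (12.2%, against 16.3%), shares near those of all genes. The rises of dib (log2 2.09 ± 0.18, adjusted p = 2.7e-09) and ogre (log2 1.69 ± 0.14, adjusted p = 1.3e-09) were kept under all alternatives. So were those of aPKC, at least 2.11-fold over background (adjusted p = 1.1e-05), and Cyp6d5, at least 1.79-fold (adjusted p = 4.7e-05). CG6136 rose at least 1.11-fold over background (adjusted p = 0.0060), a call lost without diploid early cycle 14 replicate 3 (adjusted p = 0.063). MCTS1 (log2 1.00 ± 0.17, adjusted p = 4.1e-05) and CG14427 (log2 0.79 ± 0.09, adjusted p = 7.0e-08) rose as well, and with poly-A centring both lost their calls, at 0.40 and 0.17, as CG14427 did on the deposited scale, at 0.35.

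The diploid falls of CG6180 (log2 -1.58 ± 0.35, adjusted p = 0.00115), FASN1 (log2 -0.89 ± 0.21, adjusted p = 0.0019) and Nelf-E (log2 -0.55 ± 0.13, adjusted p = 0.00229) were kept under all alternatives. CG13032 (log2 -0.75 ± 0.28, adjusted p = 0.0495) lay at the threshold and lost its call without any one of 13 of the 18 arrays, at -0.85 to -0.35. Its call held without haploid cycle 14 replicate 1 or 2, haploid early cycle 15 replicate 2, diploid early cycle 14 replicate 2 or diploid late cycle 14 replicate 1. It was lost too with ribosomal protein centring, the floor at 16, no filter on dim probe sets, no intensity trend and the replicate block, at adjusted p of 0.0925, 0.112, 0.0693, 0.122 and 0.0565. The fall of rb (log2 -0.36 ± 0.13, adjusted p = 0.0454) was as slight and was lost without any one of 10 arrays, at -0.37 to -0.23. The exceptions were haploid cycle 14 replicate 2, haploid early cycle 15 replicates 1 and 2, the diploid cycle 13 replicates, diploid early cycle 14 replicate 3 and diploid late cycle 14 replicate 1. It was also lost with the floor at 16, no filter on dim probe sets and no intensity trend, at adjusted p of 0.0906, 0.0651 and 0.128.

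The late interphase of both ploidies shared 7 of these rises, those of dib, ogre, aPKC, Cyp6d5, CG6136, MCTS1 and CG14427, and the fall of Nelf-E. Kank and gcm were called higher in haploids and not called in diploids, and CG7650 and GstE9 were called lower in haploids and not called in diploids. CG6180, FASN1, CG13032 and rb were called lower in diploids and not called in haploids. Whether such steps differ between the ploidies was not tested, because that difference is made of 2 contrasts that chose the genes.

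**Figure D4:**
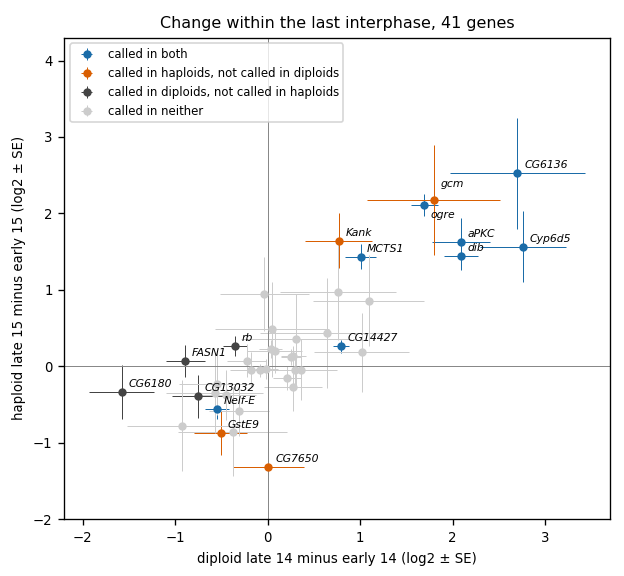
Change from early to late interphase of the 41 genes, diploid late minus early cycle 14 on the x axis and haploid late minus early cycle 15 on the y axis (limma log2 difference ± SE, 3 arrays a group). The 7 genes called higher in both lie in the upper right quadrant and Nelf-E, called lower in both, in the lower left; steps of CG6136, gcm, aPKC and Cyp6d5 that start under background have no fixed size.

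Other probe sets of the same genes gave a partial check. In all, 8 of the 41 genes had 14 further probe sets, of which 8 were above background on at least 1 array. All 3 differences were at least 1 for 3 of them and above 0 for 7. Both further probe sets of CG7650 gave haploid excesses, of 2.89, 3.05 and 2.67 and of 2.53, 1.43 and 1.32. The second probe set of mthl8 gave 1.26, 2.95 and 4.55. All but 1 of the diploid values of these 3 further probe sets were under background, so the sizes are not fixed. The second one of GstE9 gave 0.49, 0.09 and -0.47 and was above background on 4 haploid and 2 diploid arrays, so the probe sets of this gene disagree. A further one of ps, above background on 5 haploid and 1 diploid arrays, gave 0.31, 1.24 and 0.46, against 1.08, 1.12 and 1.25 in the one used. A further one of Kank, above background on 3 haploid arrays, gave 0.18, 0.60 and 0.25, against 1.21, 1.67 and 2.54. The second one of CG30460, above background on 1 array, gave -0.05, 0.67 and 0.95, and that of CG9380, above it on none, gave 0.68, 1.27 and 1.42. A further probe set names arg together with svr, CG17896 and CG18273, and another names tbc together with CG1695. They were not used.

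The choice was repeated with the arrays of 1 replicate number left out, and the 6 left-out arrays then gave differences that the choice had not used, apart from the shared normalisation. Without replicate 1, 42 genes met the conditions, and in the replicate 1 arrays all 3 of their differences were above 0 in 38 (90.5%) and at least 1 in 20 (47.6%). Of all genes 19.4% and 1.33% did so. Without replicate 2, 42 genes met them, with 35 (83.3%) above 0 and 17 (40.5%) at least 1 in the replicate 2 arrays, against 19.9% and 1.28% of all genes. Without replicate 3, 33 met them, with 29 (87.9%) and 14 (42.4%) in the replicate 3 arrays, against 21.5% and 1.28%. The median differences in the left-out arrays were 1.70, 1.41 and 1.498 for replicate 1, 1.62, 1.44 and 1.09 for replicate 2, and 1.42, 1.43 and 1.55 for replicate 3. With 1 array a group these are values with no test. The shares of all genes include 4488 genes that were under background on all arrays. The chosen genes had to reach a haploid log2 mean of 5. The shares of chosen genes and of all genes are thus not matched for level, and nothing is read from the gap between them.

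The set of genes depended on how arrays were put on a common scale. On the deposited scale 9 genes met the conditions, all of them among the 41. With median centring 24 did, 22 of them shared, with ribosomal protein centring 19, 16 of them shared, and with poly-A centring 9, 8 of them shared. CG30460, CG6136, CG9380, Cyp28a5, DCTN3-p24 and gcm met them under all 4 of these scalings, and the list without single arrays ran from 33 to 43 genes. With a floor at an intensity of 16, 31 genes met the conditions, 27 of them among the 41. That floor dropped CG6136 and gcm, and with them CG34136, CG7650, Cyp6d5, Kank, Mip, aPKC, arg, brv2, mthl8, sad, tbc and tyn. Without single arrays, 15 genes always stayed. Cyp28a5, CG30460, CG9380 and DCTN3-p24 stayed under each of the 27 alternatives tried. The median difference of all genes also moved with the scaling, and was -0.48, -0.32 and -0.16 on the deposited scale and -0.65, -0.05 and -0.22 with poly-A centring. Relative to it the median of the 41 genes was 1.33, 1.5 and 1.45, beside 1.48, 1.63 and 1.52 in the quantile normalised values. The 4 scalings move each array by a constant, so they give the same relative values by construction. The sign turned in the first pair for GstE10 on the deposited scale and with poly-A centring, at -0.01 and -0.18, and for CG10154 and mRpL18 with poly-A centring, at -0.05 and -0.0017. All other differences of the 41 genes kept their sign under these 4 scalings.

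By chromosome arm of the Release 6 plus ISO1 MT assembly, 11 of the 41 genes lie on X, 6 on 2L, 9 on 2R, 11 on 3L and 4 on 3R. That is 26.8% on X and 9.76% on 3R, beside 17.1% and 24.3% of the 6586 genes with a group mean of at least 5. Among the 76 genes that met the mirror conditions, lower in haploids, 32.9% lie on X and 17.1% on 3R.

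In 5 pairs, 10 of the 41 genes have at most 10 protein-coding genes between the partners, a window chosen after the values were seen. By the same window, 12 of the 75 placed genes of the mirror set form 6 pairs. CG10154 and CG10725, and brv2 and Mip, are next to each other on 3L with no protein-coding gene between them and no overlap. Kank and aPKC, on 2R, have 4 genes between them, of which Lap1 was above background on all 18 arrays and differed by 0.44, -0.15 and -0.99. GstE10 and GstE9, on 2R, have 8 genes between them, 7 of them measured. Of these GstE1 differed by -0.12, -0.27 and -0.83, GstE7 by 0.71, 0.59 and 0.15 and GstE6 by -1.18, -0.55 and -0.52. None of Lap1, GstE1, GstE6 and GstE7 was at least 2-fold higher in haploids at all 3 stages. Agps, CG12853, CG10257, GstE3, GstE4 and GstE5 were under background on all 18 arrays, and GstE2 was above it on 1. Nothing is read from the differences of those dim genes.

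On X, ogre and CG14427 have 9 genes between them, 7 of them measured. The gene bou differed by 2.07, 2.02 and 0.97, just outside the limit, and the innexin gene Inx7 by 1.45, 1.60 and 1.98, but with a calculated diploid step of 1.66. The diploid cycle 13 mean of bou was 17.1, under background, so its first difference has no fixed size. Inx7 was above background on 7 arrays, so its sizes are not fixed either. Another innexin gene, Inx2, differed by 0.38, 0.22 and 0.32, and cm by 1.20, 0.59 and -0.06. GstE and innexin genes are families of similar sequence, so probe sets within each may share signal, which was not tested.

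**Figure D5:**
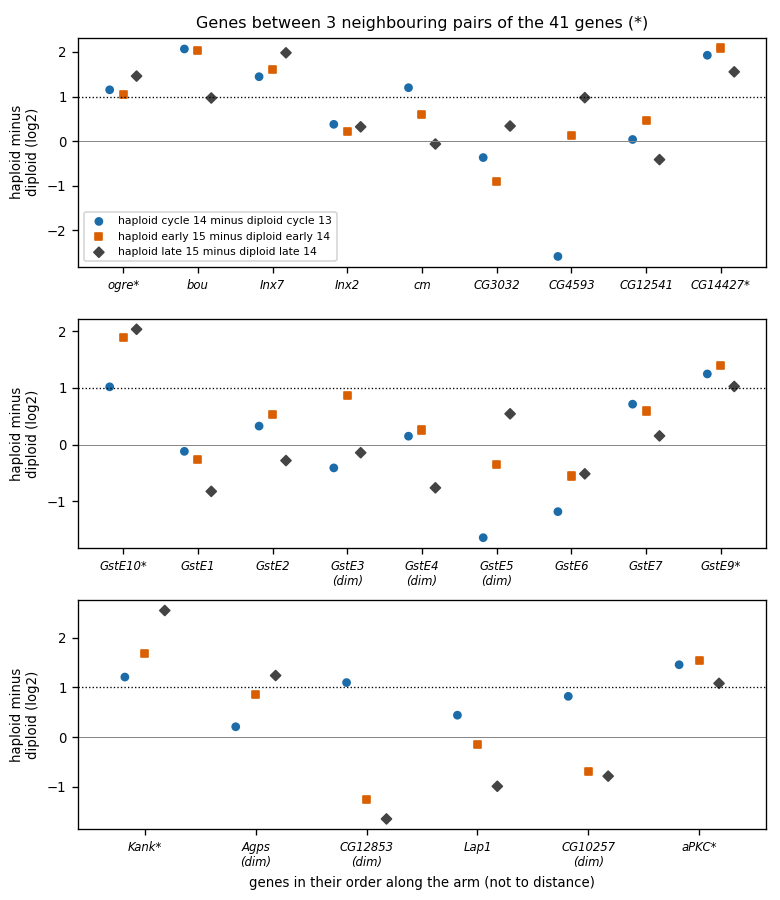
Haploid minus diploid difference (y axis, log2) at the 3 matched stages for the genes between 3 neighbouring pairs of the 41 genes, in their order along the arm (x axis, not to distance); asterisks mark genes of the 41 and "dim" marks genes under background on all 18 arrays. The difference is above 1 for the outer genes of each row, and of the genes between them Inx7 is above 1 at all 3 stages too.

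Marker and pathway lists were set beside these genes. None of the 41 is in the lists for immune response (15 measured genes), heat shock (6), DNA damage and cell death (17), RNA interference and piRNA pathway (21), testis and sperm genes (19), dosage compensation and sex determination (15), DNA replication (21), early zygotic genes (26) or maternal transcripts cleared at the transition (20). Of these lists, testis and sperm had 1 gene and maternal transcripts 4 genes at least 2-fold lower in haploids at all 3 stages, and none had a gene higher at all 3. Their medians lay between -0.98 and 0.66. Under background on all arrays were 12 of the 19 testis and sperm genes and 8 of the 15 immune genes. The same held for 1 gene each of the DNA damage and dosage compensation lists. For such genes a haploid excess could not be measured.

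Most markers of mother tissue and of muscle, blood and cuticle were under or near background. Among the exceptions, Cp15 was above background on 14 arrays and PPO2 on 17. Of 16 eggshell and yolk protein genes, which mark tissue of the mother, 8 were under background on all arrays, Yp1 and Yp3 among them, and the summed intensity was 306 to 337, 272 to 503 and 210 to 245 on the arrays of the 3 haploid stages and 204 to 252, 250 to 382 and 201 to 205 on those of the diploid stages. Of 16 markers of muscle, blood and cuticle, 13 were under background on all arrays, with sums of 172 to 223, 152 to 172 and 152 to 202 in haploids and 174 to 192, 145 to 197 and 141 to 186 in diploids. Germ cell markers were bright. These 13 genes, 3 of them lower in haploids at all 3 stages, summed to 14278 to 16834, 9266 to 9426 and 6172 to 6399 in haploids and to 29354 to 30482, 16372 to 18009 and 8086 to 8365 in diploids. A large part of each sum was CycB, with means of 8451, 5484 and 3540 in haploids and 11321, 9701 and 4956 in diploids. The direction was not shared by all, since vas and aub were higher in haploids in the first 2 pairs.

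Markers of the later nervous system had higher sums in haploids, in the late groups mostly from elav and pros. Of 12 measured genes, 8 were under background on all arrays, and the sums were 171 to 219, 377 to 456 and 1446 to 1714 in haploids and 111 to 136, 141 to 205 and 667 to 745 in diploids. In the late pair the neuronal gene elav differed by 1.70 and the neural regulator pros by 1.02. Both met the 2-fold limit at all 3 stages as calculated but not the limit on the first diploid step, with diploid cycle 13 arrays under background. For pros the haploid cycle 14 arrays were under background as well, so its first difference is not measured. Other listed genes, such as nerfin-1 and cpo, had lower calculated values in haploids in the early and late pairs, on arrays almost all under background. The part of these markers in the results for Mip, gcm and the other genes was not tested.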

How the data were processed

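RNA of 18 embryo pools was hybridised to Affymetrix arrays (18952 probe sets). The authors deposited MAS5 signals, which are intensities on a linear scale, per the submitters' processing notes. Neither the MAS5 version nor a scaling target is given in the sources used here. The values are not counts, and the number of arrays limits the precision. From these intensities, values were quantile normalised over all 18 arrays, set to 0.1 (the smallest positive intensity) where lower, and log2 transformed. Symbols came from the platform annotation, which names 1 gene for 13647 of 18769 probe sets that are not controls, several for 402 and none for 4720; arms and gene order came from the Release 6 plus ISO1 MT gene table, in which all 41 genes were found. The members and the gene lists were chosen with earlier results of these data known.

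One model of 6 group means was fitted with limma 3.58.1 (R 4.3.3, lmFit and eBayes with an intensity trend) to 14560 probe sets with at least 3 arrays at or above an intensity of 12.0, the 40th percentile, and p-values were adjusted by Benjamini-Hochberg over all of them. The procedure was tested on simulated data. Values on every array are given for the 12 genes with the largest least difference among those above background on all 9 haploid arrays, for the 4 largest rises and falls called in each step and for members of the lists, and MCTS1 and rb were added after their values were seen. Replicate numbers are shared between groups but do not pair the samples: of 45 correlations of deviations between arrays of the same number, 0 exceeded 0.1 (-0.06 to 0.07). The labels call the replicates biological, and no array was left out. Python 3.11.15 with pandas 2.3.3 made the summaries.

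Alternatives were the deposited scale, centring on medians, on 47 ribosomal protein probe sets or on 12 poly-A control probe sets, a floor at an intensity of 16, other filters and variance priors, the mean of all probe sets of a gene, the replicate number as a block, and each array left out.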

Additional observations from a re-analysis of the deposited data

How the results depend on the processing

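The number of genes that met the conditions was 41, and 9 without scaling, 24 when arrays were centred on their median, 19 when centred on ribosomal protein probe sets and 9 with poly-A centring. It was 31 with a floor at an intensity of 16 and 33 to 43 with arrays left out. Genes called between haploid cycle 14 and early cycle 15 numbered 8 (8 higher, 0 lower), and 13 without scaling (all higher), 4 with median centring (3 higher, 1 lower), 23 with poly-A centring (all higher), 14 with a floor at an intensity of 16 (13 higher, 1 lower) and 6 to 9 with arrays left out. The share of all tested genes was not counted under the alternatives, so nothing about the members is read from these shifts. For haploid early to late cycle 15 the count was 12, and 10 to 12 with arrays left out. For diploid early to late cycle 14 it was 12, and 10 to 13. The replicate block gave 8, 12 and 11 calls, and of the called steps it ended that of CG13032 (adjusted p = 0.0565). Of 32 called steps, 17 were kept under all alternatives. Of 863 values of these steps under alternatives, 786 kept direction and call, 76 lost the call and 1 reversed, that of CG14427 from haploid early to late cycle 15 with poly-A centring, at -0.30. Of 1353 values of the haploid minus diploid differences, 1119 moved by less than the spread between replicates, 230 moved by more, and 4 reversed, all in haploid cycle 14 against diploid cycle 13. These were CG10154 at -0.0494 and mRpL18 at -0.0017 with poly-A centring, and GstE10 at -0.013 on the deposited scale and -0.18 with poly-A centring. The cause of these changes was not tested. Signal over background limits the differences against diploid groups with all 3 arrays under background, 23 genes in cycle 13, 17 in early cycle 14 and 15 in late cycle 14, whose sizes are not fixed.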

Other observations

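Some genes outside the 41 had the same haploid excess and missed the set through the diploid step as calculated, which for sro rests on arrays under background. In all, 103 genes were at least 2-fold higher in haploids at all 3 matched stages, and 154 were at least 2-fold lower. Among the 103, the ecdysteroid gene sro had 222, 244 and 191 in haploid late cycle 15, against 71.2, 58.3 and 71.6 in diploid late cycle 14. The neuronal gene elav had 866, 766 and 854 in haploid late cycle 15, against 273, 239 and 252 in diploid late cycle 14, and the groups did not overlap. Pka-C3, set aside from the outset, had differences of 1.75 and 1.09 in the early and late pairs. These contrasts were chosen by their size and carry no test.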
